A study of Mus musculus with 12 samples.

Results

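The state of cultured mouse macrophages that had received both transforming growth factor beta (TGFβ) and the TLR2 ligand Pam3 was described against cells that had received neither. The comparison took 6 of the 12 libraries of the series, 3 labelled as treated with Pam3 and TGFβ and 3 labelled untreated. All genes that passed a filter on low counts were tested, 14749 of 40847 rows. The series sequenced polyadenylated RNA of FLAMs, fetal liver alveolar-like macrophages, in 4 groups of 3 libraries, to ask how TGFβ changes the answer to TLR2 activation. All groups were grown in recombinant mouse GM-CSF at 30 ng/ml. Untreated cells had no further agent, and Pam3+TGFβ cells had recombinant human TGFβ1 at 20 ng/ml and Pam3CSK4 at 25 ng/ml for 18 h. The groups with TGFβ alone and Pam3 alone enter as single treatments, at the same doses. The length of TGFβ exposure, the mouse strain and the number of fetal livers behind the cells are not given in the sources used here. Nothing says that the 3 libraries of a group came from separate isolations, so the p-values measure only the spread between these libraries, which may be technical.

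FLAMs are grown from fetal liver cells in GM-CSF and serve as a model of alveolar macrophages, the resident macrophages of the airspace, which depend on GM-CSF and TGFβ for their identity. TGFβ signals through the receptor kinases TGFBR1 and TGFBR2 to SMAD proteins, and in macrophages it is known for restraining inflammatory genes. Pam3CSK4 is a synthetic lipopeptide that binds TLR2 paired with TLR1 and signals through MYD88 to NF-kB. Type I interferon signals through IFNAR to a complex that holds STAT2 and IRF9 and binds the interferon-stimulated response element (ISRE) near its target genes.

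The promoters of 4 interferon-induced genes with a large rise are printed here, because they hold the ISRE letters, 1 of the 4 motifs searched. Each runs from 250 bases before to 50 bases after the start of the gene, 5′ to 3′ on the gene's own strand, from RefSeq, with GRCm39 coordinates found by an exact match to that genome. Capitals mark the letters searched as ISRE, which are GAAA, any 2 bases and GAAA again, or their reverse complement. Cxcl10 (chr5:92496699-92496998, minus strand) encodes a chemokine that draws T cells, and its match begins 213 bases before the start.
Cxcl10: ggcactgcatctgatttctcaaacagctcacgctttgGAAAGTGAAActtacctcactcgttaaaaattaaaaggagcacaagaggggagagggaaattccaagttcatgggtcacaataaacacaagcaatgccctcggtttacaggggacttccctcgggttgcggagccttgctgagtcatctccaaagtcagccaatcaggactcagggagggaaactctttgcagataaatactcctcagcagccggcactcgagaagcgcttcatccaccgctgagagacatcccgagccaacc
Ifit1 (chr19:34618039-34618338, plus strand) encodes a protein that binds foreign RNA, and its matches begin 104 and 85 bases before the start.
Ifit1: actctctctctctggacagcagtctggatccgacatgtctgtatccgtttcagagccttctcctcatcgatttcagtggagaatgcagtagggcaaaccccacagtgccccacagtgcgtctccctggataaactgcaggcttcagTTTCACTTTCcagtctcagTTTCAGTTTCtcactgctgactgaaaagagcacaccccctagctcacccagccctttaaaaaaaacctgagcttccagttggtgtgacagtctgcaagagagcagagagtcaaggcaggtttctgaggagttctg
Isg15 (chr4:156285226-156285525, minus strand) encodes a ubiquitin-like modifier, and its 3 overlapping matches begin 78, 72 and 66 bases before the start.
Isg15: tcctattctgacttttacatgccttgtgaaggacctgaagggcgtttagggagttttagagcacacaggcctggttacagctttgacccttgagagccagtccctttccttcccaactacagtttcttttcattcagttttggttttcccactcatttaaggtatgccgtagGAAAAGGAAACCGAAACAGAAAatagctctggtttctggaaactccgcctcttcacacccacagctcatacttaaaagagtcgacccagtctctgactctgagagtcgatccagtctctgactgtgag
Rsad2 (chr12:26506402-26506701, minus strand) encodes viperin, an antiviral enzyme, and its match begins 120 bases before the start.
Rsad2: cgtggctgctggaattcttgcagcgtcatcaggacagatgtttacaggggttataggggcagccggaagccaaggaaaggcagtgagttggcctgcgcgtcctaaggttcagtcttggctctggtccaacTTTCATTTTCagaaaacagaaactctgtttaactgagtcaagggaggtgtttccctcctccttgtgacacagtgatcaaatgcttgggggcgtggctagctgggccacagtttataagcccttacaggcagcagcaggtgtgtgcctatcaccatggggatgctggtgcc

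The ISRE letters, on either strand, stood in 22 of 40 promoters of the interferon-stimulated list (55%). They were absent from those of Oasl1 and Cmpk2, which rose 63.8-fold and 42.3-fold. The ISRE letters stood in 72 of 722 promoters of genes called at least 2-fold higher under both stimuli (9.97%). This compares with 361 of 11210 promoters of all tested genes (3.22%) and 31 of 966 of genes called at least 2-fold lower (3.21%). The letters searched as NF-kB (GGG, any 2 bases, TTTCC) stood in 2.35% of the promoters of the higher genes, 1.45% of the lower ones and 1.72% of all tested genes. The AP-1 letters TGANTCA stood in 8.45% of the higher, 8.49% of the lower and 5.43% of all tested genes, and in 10 of the 40 promoters of the interferon-stimulated list (25%). Of the promoters printed, those of Cxcl10 and Rsad2 held them, as TGAGTCA beginning 74 and 87 bases before the start, in lower case above. The NF-kB letters stood in 1 of those 40 (2.5%). They fix most positions, so near forms were not counted, such as gggaaattcc in the printed Cxcl10 promoter, which differs by a single base. A low share of these letters does not show that NF-kB sites are absent. The SMAD letters GTCTAGAC stood in 0.277% of the higher, 0.104% of the lower and 0.214% of all tested genes, and in none of the interferon-stimulated list. These are matches of letters in windows of 300 bases and not binding sites. Promoters were matched by symbol, and genes missing from the RefSeq table are not counted.

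The untreated libraries held 37275475, 41915315 and 36656678 counts and the Pam3+TGFβ libraries 34417460, 37380605 and 44374115. All 12 pan-macrophage markers listed were expressed, with a summed level of 34811 to 39312.7 CPM (counts scaled to a common library size by TMM) in untreated and 28196.2 to 28966.5 in Pam3+TGFβ, of which Lyz2 made the largest part. Untreated replicate 3 stood apart on the second principal component of the 6 libraries (10.8% of the variance, against 73% on the first, which separated the groups). It also held more of 7 abundant RNAs without poly(A) tails, 0.712% of its counts against 0.0787 to 0.121% in the 5 other libraries, and results that changed without this library are given both ways. Among the single treatments, TGFβ replicates 1 and 3 held 0.454 and 0.412% and Pam3 replicates 2 and 3 held 0.406 and 0.542%, against 0.0687% in TGFβ replicate 2 and 0.0891% in Pam3 replicate 1. Over genes, the chi-square per degree of freedom was 16 between TGFβ replicates 1 and 3 and 24.6 between Pam3 replicates 2 and 3, but 133 to 220 between them and the third library of their group, or between untreated replicate 3 and the others. This split of the libraries is therefore uneven over the groups, as the Pam3+TGFβ group had no library of the high class. In alternatives chosen after seeing the data, the high or low class was added as a term, or the 7 libraries of the low class were tested alone, which left 1 library for each single treatment, assumed to vary like the other groups. They called 7545 and 6986 genes for Pam3+TGFβ against untreated, 2542 and 1173 for Pam3 alone, 4981 and 3370 for the step from TGFβ to both and 1667 and 802 for the interaction. Markers of other cells were low. Summed over 7 neutrophil markers, of which Mpo was at 0, the level was 13.9 to 16 CPM in untreated and 5.96 to 7.9 CPM in Pam3+TGFβ. S100a8, the largest member, fell, whereas S100a9 and Camp rose. Hepatocyte markers went from 5.8 to 5.87 CPM up to 8.41 to 10.2 CPM, nearly all Afp. Lists for T cells, B cells, eosinophils and erythroid cells stayed at or below 0.257 CPM in these 6 libraries, and the B cell list reached 0.419 CPM with TGFβ alone. In bulk RNA, fewer cells of a type and less RNA per cell cannot be told apart.

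With edgeR's quasi-likelihood test at a Benjamini-Hochberg adjusted p under 0.05, 7691 of 14749 genes (52.1%) were called, 3681 higher (25%) and 4010 lower (27.2%). A change of at least 2-fold was called for 2244 genes (15.2%), 974 higher (6.6%) and 1270 lower (8.61%). The TMM scaling centres these values, so the balance of higher and lower calls depends on it, and upper-quartile scaling gave 3354 higher and 4322 lower. Without untreated replicate 3, 7320 genes were called, 3508 higher and 3812 lower. Pam3 alone against the same untreated libraries gave 2697 calls (18.3%, with 9.62% of genes higher and 8.66% lower), and TGFβ alone gave 7518 (51%, with 22.9% higher and 28.1% lower). Adding Pam3 to TGFβ changed 38.5% of genes (20.4% higher, 18.1% lower) and adding TGFβ to Pam3 changed 45.3%. The interaction was called for 15.9% of genes (10.3% positive). The contrasts of Pam3 alone, TGFβ alone and both against untreated share their control libraries, so their values are set side by side below.

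**Figure D1:**
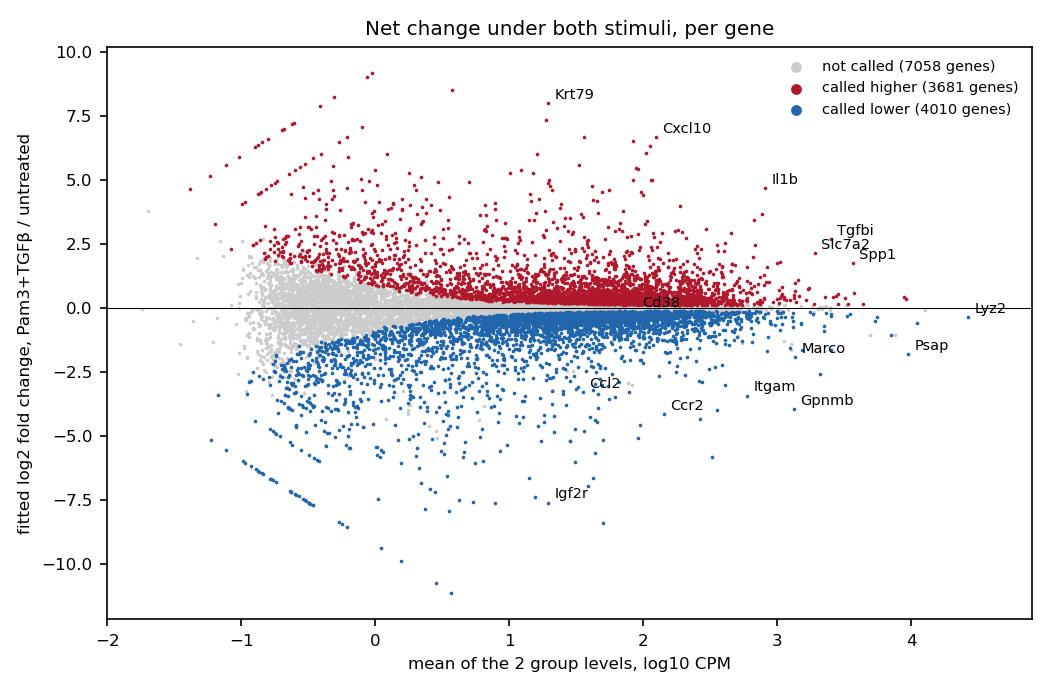
Fitted log2 fold change of Pam3+TGFβ over untreated (vertical) against the mean of both group levels (horizontal, log10 CPM), 1 point per tested gene, with genes called higher (3681), lower (4010) and not called (7058) in separate colours. Cxcl10, Krt79 and Il1b lie far above 0 and Igf2r and Gpnmb far below it; fitted values of genes with almost no counts in a group, which form the diagonal streaks at the left, depend on the prior count and are no measure of size.

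The interferon-stimulated genes formed the most uniform group. Of 50 listed, all were tested, 49 were called higher (98%, against 25% of all tested genes) and 47 of those at least 2-fold, with a median log2 fold change of 2.82. Cxcl10 (chr5:92494497-92496748) had 2.08, 3.22 and 1.88 CPM in the untreated libraries and 263, 256 and 215 CPM with both stimuli. Every treated library was above every untreated one, and the fitted rise was 6.66 on the log2 scale, with an SE of 0.295 and an adjusted p of 7.57e-08. The mean was 0.518 ± 0.432 CPM (SD, n = 3) with TGFβ alone and 11.6 ± 2.3 CPM with Pam3 alone. The interaction, the change under both beyond the sum of both single log2 changes, was 6.57 (SE 0.526, adjusted p = 3.44e-05).

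Ifit1 (chr19:34618271-34632174) had 2.08, 3.49 and 3.68 CPM in untreated and 220, 211 and 188 CPM under both stimuli. The rise was 6.06 on the log2 scale, with an SE of 0.223 and an adjusted p of 5.94e-09. Rsad2 (chr12:26492745-26506451) had 1.55, 4.91 and 5.42 CPM in untreated and 179, 176 and 167 CPM under both, a change of 5.46 (SE 0.35, adjusted p = 1.3e-06). The treated libraries of these genes lay close together, while untreated replicate 1 was the lowest of its group for both. Isg15 rose from 2.52, 3.9 and 2.31 CPM to 76.5, 84.4 and 79.1 CPM, a change of 4.77 (SE 0.139, adjusted p = 3.77e-17). Cmpk2, the nucleotide kinase gene next to Rsad2, rose from 2.92, 5.1 and 4.51 CPM to 179, 179 and 175 CPM.

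Oasl1, of the oligoadenylate synthetase family, rose 63.8-fold, and Usp18, a protease that removes ISG15 and damps interferon signalling, rose 48.3-fold. Ifit3 and its neighbour Ifit3b rose by 6.5 and 6.65 on the log2 scale. They are close copies, so the split of reads between them is uncertain. The regulators rose with the effectors. Irf7, the amplifier of interferon production, went from 5.47, 9.36 and 5.9 CPM to 218, 221 and 220 CPM, a change of 4.98 on the log2 scale (SE 0.206, adjusted p = 2e-08). Its mean was 50.4 ± 5.82 CPM with Pam3 alone and 5.53 ± 1.14 CPM with TGFβ alone.

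Stat2 and Irf9, subunits of the complex that binds the ISRE, rose as well, 5.29-fold and 4.16-fold. At the weak end of the list were Psmb8, an immunoproteasome subunit that rose 1.93-fold, and the nuclear body gene Sp100, which rose 1.89-fold. Sp100 is a case of opposed single effects, as its mean was 38.5 ± 3.86 CPM in untreated, 95.5 ± 4.55 CPM with Pam3 alone, 8.92 ± 0.535 CPM with TGFβ alone and 73 ± 0.463 CPM with both.

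The exception on the list was Ifitm3, a membrane protein that blocks virus entry. It had 10.4, 11.7 and 9.41 CPM in untreated and 5.93, 6.16 and 4.86 CPM under both stimuli, a fall of 0.90 on the log2 scale (SE 0.142, adjusted p = 6.68e-06). Its mean was 13.7 ± 1.01 CPM with Pam3 alone and 0.0684 ± 0.0657 CPM with TGFβ alone, so the level under both lay between those of the single treatments. Ifnb1, the interferon beta gene, fell below the count filter and was not tested. It had 0 counts in each untreated library and 11, 18 and 10 counts in the Pam3+TGFβ libraries, at least 4.34-fold higher when untreated is set to 3 counts per library.

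**Figure D2:**
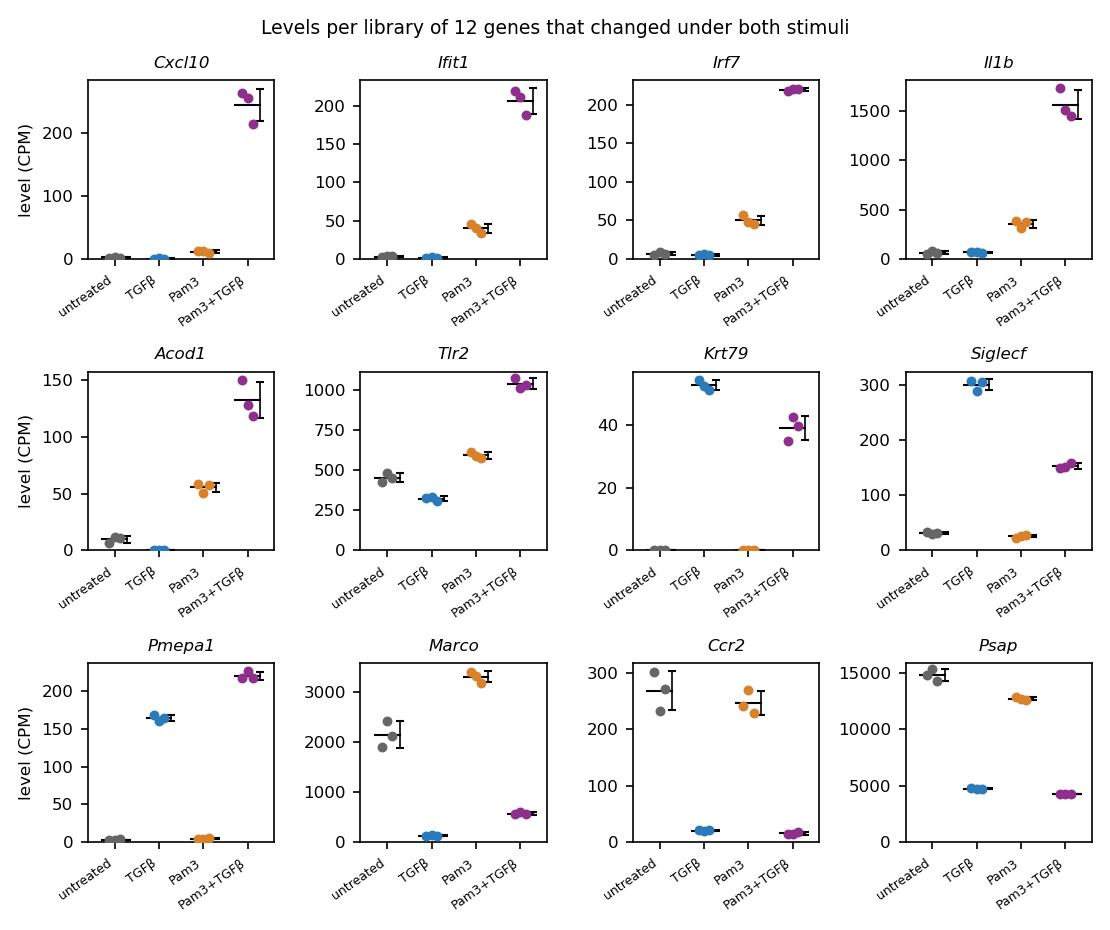
Level in CPM of 12 genes in each library of the 4 groups, with a line at the mean and a bar of 1 SD to its right (n = 3). Cxcl10, Ifit1, Irf7, Il1b and Acod1 are highest in the 3 Pam3+TGFβ libraries, Siglecf and Krt79 are highest with TGFβ alone, and Marco, Ccr2 and Psap are lower in both groups with TGFβ than in both groups without it.

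Among cytokines and growth factors, Il1b, Il1a and Il1rn were among those that rose and Csf1, Il18 and Il15 among those that fell. Of 27 listed genes 21 were tested, 11 were called higher (52.4%, against 25% of all tested genes) and 7 lower (33.3%, near the 27.2% of all), with a median log2 fold change of 1.52, which became 0.67 without Pam3+TGFβ replicate 2. Il1b (chr2:129206490-129213059), the secreted fever cytokine, had 46.8, 76.6 and 61.3 CPM in untreated and 1727, 1512 and 1449 CPM under both stimuli. The change was 4.66 on the log2 scale (SE 0.197, adjusted p = 4.56e-08), or 25.4-fold, against means of 65.7 ± 4.95 CPM with TGFβ alone and 356 ± 42.1 CPM with Pam3 alone. Il1a (chr2:129140291-129152098) rose from 90.8, 128 and 114 CPM to 1532, 1402 and 1321 CPM, or 12.8-fold. Il1rn, the secreted antagonist of both, rose from 411, 512 and 477 CPM to 1740, 1576 and 1517 CPM, or 3.45-fold. On the log2 scale the agonists changed by 4.66 and 3.67 and the antagonist by 1.79 (SE 0.0721); the difference between these genes was not tested. Il1f6, the interleukin 36 alpha gene, held 0, 0 and 2 counts in untreated and 244, 290 and 335 counts under both, at least 94.8-fold higher.

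Tnf and Il6 had opposed single effects and ended above untreated. Tnf (chr17:35418357-35420983) had 59.3, 76.4 and 59.9 CPM in untreated and 234, 217 and 201 CPM under both, a change of 1.74 on the log2 scale (SE 0.0839, adjusted p = 4.94e-12). Its mean was 19.7 ± 1.3 CPM with TGFβ alone and 145 ± 4.99 CPM with Pam3 alone. Il6 (chr5:30218112-30224979) rose from 0.736, 1.76 and 1.65 CPM to 15.3, 10.6 and 9.8 CPM, or 8.57-fold, although its mean with TGFβ alone was 0.08 ± 0.0505 CPM. In both genes the group with both agents was the highest of the 4 by its mean.

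Lif and Osm, cytokines of the interleukin 6 family, followed TGFβ instead. Lif (chr11:4207557-4222514) rose from 4.29, 5.44 and 5.5 CPM to 65.9, 61 and 64.7 CPM, or 12.6-fold, and its mean with TGFβ alone was 67.8 ± 3.54 CPM. The step from TGFβ alone to both was -0.09 on the log2 scale for Lif and -0.10 for Osm, which rose 3.99-fold from untreated to both. Among the cytokines that fell, Csf1, the macrophage colony-stimulating factor, went from 15.5, 18.7 and 17.9 CPM to 5.67, 5.62 and 5.69 CPM, or 3.07-fold lower. Il18 and Il15 also fell, by 1.01 and 1.17 on the log2 scale.

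Of 23 listed chemokines, 19 were tested, 11 were higher (57.9%, against 25% of all tested genes) and 6 lower (31.6%, near the 27.2% of all), and the median log2 fold change was 0.44, which ran from 0.33 without Pam3+TGFβ replicate 1 to 1.02 among genes that had 10 counts or more in all libraries. The neutrophil attractant Cxcl3 (chr5:90933962-90937459) had 13.9, 21.9 and 21.8 CPM in untreated and 231, 165 and 167 CPM under both, a change of 3.29 (SE 0.231, adjusted p = 2.3e-06). Cxcl2, its close relative, rose 4.35-fold. Both had means near 1 CPM or less with TGFβ alone, 0.7 ± 0.144 CPM for Cxcl3 and 1.2 ± 0.253 CPM for Cxcl2. Cxcl16, a membrane-bound chemokine and scavenger receptor, rose 8.21-fold.

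Ccl2, Ccl7 and Ccl6 were among the chemokines that fell. Ccl2, which draws monocytes (chr11:81926397-81928279) had 58.4, 67.4 and 67.5 CPM in untreated and 7.48, 6.64 and 6.01 CPM under both stimuli. That is a fall of 3.27 on the log2 scale (SE 0.0887, adjusted p = 2.54e-20), or 9.64-fold. Its mean was 70.7 ± 2.17 CPM with Pam3 alone, for which the change was not called (adjusted p = 0.257), and 0.123 ± 0.0556 CPM with TGFβ alone. Ccl7, next to Ccl2 on chromosome 11, had 33, 71 and 55 counts in untreated and 3, 0 and 8 counts under both. Its fall of 3.85 on the log2 scale became 4.92 without Pam3+TGFβ replicate 3. Ccl6, from 9172, 10216 and 9263 CPM to 4753, 4684 and 4333 CPM, fell 2.08-fold.

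Genes of inflammatory metabolism included some of the largest changes in level. Of 25 tested, 14 were higher (56%, against 25% of all tested genes) and 7 lower (28%, near the 27.2% of all), with a median of 0.33. Acod1 (chr14:103284413-103294009), which makes itaconate, had 6.58, 11.9 and 10.7 CPM in untreated and 150, 129 and 119 CPM under both, or 13.6-fold more (log2 3.77, SE 0.206, adjusted p = 1.82e-07). With TGFβ alone its mean was 0.534 ± 0.199 CPM, below all untreated libraries. Slc7a2, a transporter of arginine, rose from 728, 649 and 745 CPM to 3266, 2934 and 3083 CPM, or 4.37-fold. Slc7a11, the cystine transporter, rose from 188, 202 and 241 CPM to 1337, 1003 and 1113 CPM, or 5.47-fold.

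Nos2, the inducible nitric oxide synthase, stayed below the count filter, with 0, 2 and 0 counts in untreated and 14, 14 and 8 counts under both, at least 4.07-fold higher. Lcn2, which binds bacterial iron carriers, held 2, 1 and 12 counts in untreated and 151, 120 and 158 counts under both. Its log2 fold change of 4.78 became 6.51 without untreated replicate 3, the library with 12 counts. On the lower side of the list, Hpgds, the prostaglandin D2 synthase gene of myeloid cells, fell by 3.38 on the log2 scale, and Ptgs1 by 1.13.

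In the TLR2 pathway the receptor gene Tlr2 and several signalling genes rose, while the partner receptors Tlr1 and Tlr6 fell. Of 26 tested genes of TLR2 signalling and interferon induction, 15 were higher (57.7%, against 25% of all tested genes) and 6 lower (23.1%, against 27.2%), with a median of 0.28. Tlr2 itself (chr3:83743576-83749074) had 427, 483 and 452 CPM in untreated and 1079, 1016 and 1032 CPM under both, a change of 1.20 on the log2 scale (SE 0.0544, adjusted p = 7.83e-16). It was 324 ± 14.3 CPM with TGFβ alone and 594 ± 21.5 CPM with Pam3 alone. Its partner Tlr1 (chr5:65082022-65090941) fell from 12.3, 11.6 and 13.3 CPM to 1.19, 1.55 and 1.17 CPM, or 9.5-fold. Tlr6, the other partner, fell 1.74-fold. Cd36 (chr5:17986432-18094067), a scavenger receptor that helps TLR2 bind lipids, fell from 446, 450 and 472 CPM to 70.4, 62.4 and 58.8 CPM, or 7.14-fold, while Cd14, a co-receptor, rose 2.54-fold.

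The adaptor Myd88 rose 1.42-fold, and Irak3, a kinase-like inhibitor of this pathway, rose 2.69-fold from 44.8, 46.6 and 49.3 CPM to 128, 126 and 124 CPM. Irf3, Map3k7, Tab1, Tab2 and Ifnar2 were not called. Their log2 fold changes lay between -0.14 and 0.05.

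Of 20 tested NF-kB subunits and feedback inhibitors, 17 were higher (85%, against 25% of all tested genes) and 2 lower (10%, against 27.2%), with a median of 0.99. Nfkbiz (chr16:55631738-55659262), the inducible cofactor for secondary response genes, had 7.92, 8.13 and 9.61 CPM in untreated and 35.5, 38.2 and 31.8 CPM under both, or 4.11-fold more (SE 0.118 on the log2 scale, adjusted p = 5.18e-13). Tnfaip3, the A20 inhibitor, rose 2.76-fold and Nfkbia, the IkB alpha gene, 2.4-fold. For both inhibitors TGFβ alone had the lowest mean, 15.9 ± 0.378 CPM and 69.5 ± 1.34 CPM against 43.5 ± 2.55 and 118 ± 9.05 CPM in untreated. The exceptions were Tnip3, an A20-binding protein that fell from 31.8, 41.3 and 39.9 CPM to 11.3, 9.91 and 11.5 CPM, and Cish, a target of STAT5 that fell 1.71-fold. Dusp1 was not called, at -0.07.

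Of 27 tested genes of the TGFβ pathway, 17 were higher (63%, against 25% of all tested genes) and 8 lower (29.6%, against 27.2%), with a median of 0.78. Pmepa1 (chr2:173066251-173118444), a feedback inhibitor of SMADs, had 2.68, 2.48 and 3.25 CPM in untreated and 217, 226 and 217 CPM under both. The change was 6.30 on the log2 scale (SE 0.113, adjusted p = 6.42e-19), or 78.9-fold. Its mean was 164 ± 3.81 CPM with TGFβ alone. Spsb1, part of a ubiquitin ligase that targets TGFBR2, rose from 0.289, 0.12 and 0.285 CPM to 37.1, 40.4 and 35.6 CPM, or 164-fold. Smad7, the inhibitory SMAD, rose from 2.5, 2.19 and 2.57 CPM to 12, 11.9 and 11.8 CPM, and Skil, a SMAD co-repressor, rose 2.94-fold.

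Tgfbi (chr13:56757336-56787375), a secreted matrix protein named for its induction by TGFβ, went from 645, 717 and 663 CPM to 4355, 4283 and 4347 CPM. Its rise of 2.68 on the log2 scale (SE 0.055) can be set beside 1.92 with TGFβ alone and 0.52 with Pam3 alone. Its interaction was 0.24 (SE 0.0731, adjusted p = 0.0247), so the fitted change under both slightly exceeded the sum of the single log2 changes. Fewer interactions were called with the class of RNA without poly(A) tails as a term (1667 genes against 2352). That of Tgfbi was not looked at separately there.

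The receptors moved apart. Tgfbr1 rose 2.87-fold, from 189, 156 and 192 CPM to 502, 497 and 543 CPM, whereas Tgfbr2 fell 2.13-fold, from 484, 451 and 466 CPM to 220, 215 and 225 CPM. Lrrc32, which holds latent TGFβ on the cell surface, fell from 6.13, 7.05 and 7.73 CPM to 0.378, 0.134 and 0.339 CPM, or 24.2-fold, and was at 0 in all TGFβ-only libraries. Nrros, a related anchor of latent TGFβ in myeloid cells, fell by 1.60 on the log2 scale.

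Alveolar macrophage identity genes did not move as 1 block. Of 38 listed and tested genes, 21 were higher (55.3%, against 25% of all tested genes) and 16 lower (42.1%, against 27.2%), with a median of 0.40. The list also holds Il1f6, described above, whose counts were 4, 4 and 6 with TGFβ alone and 44, 29 and 35 with Pam3 alone. Krt79, Siglecf and Epcam were also raised by TGFβ alone. Krt79 (chr15:101837767-101848759) had 0.21, 0.144 and 0.0855 CPM in untreated and 34.9, 42.4 and 39.7 CPM under both, a change of 8.01 on the log2 scale (SE 0.207, adjusted p = 8.05e-19). Siglecf (chr7:43000765-43008955), a sialic acid receptor that marks mouse alveolar macrophages, had 34.3, 30.1 and 32 CPM in untreated and 150, 152 and 159 CPM under both, or 4.78-fold more. Its mean with TGFβ alone was higher still, 300 ± 9.99 CPM, and the step from TGFβ alone to both was -0.97 on the log2 scale. Epcam held 3, 0 and 2 counts in untreated and 59, 84 and 84 counts under both, at least 24.8-fold higher.

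Pparg (chr6:115337675-115468268), the transcription factor that sets this identity, had 112, 119 and 119 CPM in untreated and 170, 176 and 169 CPM under both, a change of 0.56 on the log2 scale (SE 0.0447, adjusted p = 6.96e-11). Pam3 alone changed it by -0.39 and TGFβ alone by 0.94, and the interaction was 0.00 (SE 0.0629, adjusted p = 0.993), so the level under both matched the sum of the opposed single changes to within its error. Car4, a carbonic anhydrase of the cell surface, rose with each agent and 3.41-fold with both, from 421, 482 and 440 CPM to 1551, 1595 and 1441 CPM. Chil3 rose 1.52-fold. Ear1 rose by 3.19 and Ear2 by 0.32 on the log2 scale, and the split of reads within this family of close copies is uncertain.

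Other genes used to recognise the cell type were lower under both stimuli. Marco (chr1:120402267-120432753), a scavenger receptor for bacteria, fell from 1890, 2422 and 2128 CPM to 555, 599 and 551 CPM, or 3.78-fold. Its single effects were opposed, with 3302 ± 111 CPM with Pam3 alone and 123 ± 6.27 CPM with TGFβ alone. Mrc1, the mannose receptor (chr2:14234151-14336926), fell from 1990, 1674 and 1928 CPM to 614, 624 and 637 CPM, below the means of both single treatments, 970 ± 7.16 CPM with TGFβ and 1479 ± 71.6 CPM with Pam3. Fabp4 (chr3:10268785-10273737), a lipid carrier, fell from 31, 32.2 and 30 CPM to 0.233, 0.107 and 0.203 CPM, or 169-fold. Itgax, which encodes CD11c, fell 1.23-fold. The untreated and treated libraries did not overlap in any of these 4 genes, and 29.3% of all tested genes were lower without overlap.

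**Figure D3:**
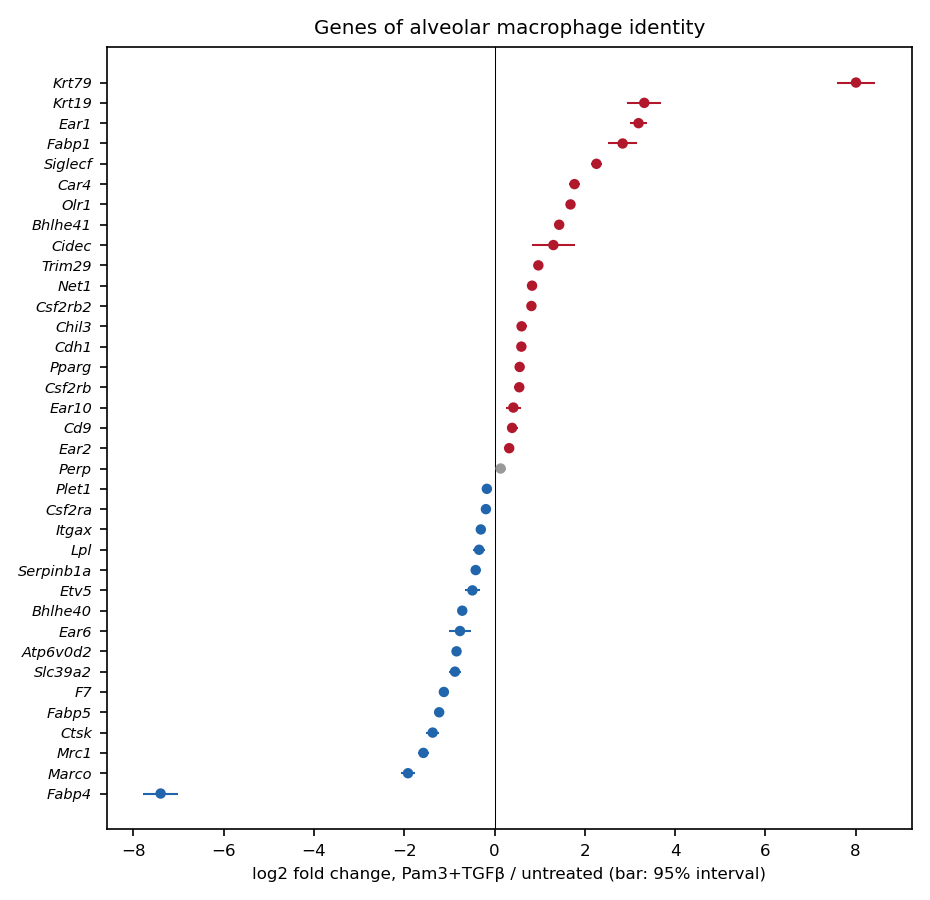
Log2 fold change of Pam3+TGFβ over untreated with its 95% interval for 36 of the 38 tested alveolar macrophage identity genes, coloured by call (higher, lower, not called). The points run from 8.01 for Krt79 to -7.40 for Fabp4; Il1f6 and Epcam, which had at most 3 counts in every untreated library, are left out.

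Genes of monocytes and of other tissue macrophages were mostly lower. Of 17 tested, 12 were lower (70.6%, against 27.2% of all tested genes) and 5 higher (29.4%, near the 25% of all). The median of fitted changes was -2.36, and -1.40 with the 7 genes that had at most 3 counts in each library of a group set to their bound. It was -3.15 without Pam3 replicate 1 and -0.26 when only genes with at least 10 counts in every library were tested. Ccr2, the receptor for CCL2, fell from 301, 232 and 273 CPM to 13.4, 14.2 and 18.3 CPM, or 17.5-fold (log2 -4.13, SE 0.136, adjusted p = 4.74e-10). Gpnmb (chr6:49013426-49047863), a glycoprotein of lysosome-rich macrophages, fell from 2473, 2617 and 2446 CPM to 174, 157 and 157 CPM, or 15.5-fold. C1qb had 315, 397 and 256 counts in untreated and 2, 3 and 0 under both, at least 107-fold lower, and C1qa and C1qc were at least 27-fold and 39.3-fold lower.

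The exceptions were Spp1, Ly6c2, Cx3cr1, Apoe and Clec4f. Spp1 (chr5:104582165-104589235), the osteopontin gene, rose from 1515, 1750 and 1730 CPM to 5795, 5627 and 5542 CPM, or 3.4-fold, the largest gain in CPM of the 14749 genes, with a mean of 7074 ± 377 CPM under TGFβ alone. Ly6c2, which has a close copy in Ly6c1, rose 21.9-fold, from 0.947, 1.37 and 1.43 CPM to 28.5, 28.2 and 25.5 CPM. Its mean was 3.05 ± 0.0994 CPM with Pam3 alone and 1.39 ± 0.185 CPM with TGFβ alone. The summed neutrophil level was also lower in the treated libraries, as given above, and its part in the fall of Ccr2 was not tested.

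Of the integrins, Itgam (chr7:127661808-127717753), which encodes CD11b, fell from 1071, 1050 and 1144 CPM to 111, 97.3 and 96.4 CPM, or 10.7-fold. It was the strongest change among 12 pan-macrophage markers, of which 7 were lower (58.3%, against 27.2% of all tested genes), 2 higher (16.7%, against 25%) and 3 not called. Lyz2, the lysozyme gene, fell 1.28-fold, from 28286, 32247 and 28939 CPM to 23372, 23542 and 22840 CPM. Fcgr1, the high-affinity IgG receptor, rose by 1.08 on the log2 scale.

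Lysosomal genes were mostly lower. Of 24 tested genes 20 were lower and 1 was higher (83.3% lower, against 27.2% of all tested genes), with a median of -0.53. With TGFβ alone 21 were lower (28.1% of all tested genes were), with a median of -0.66. With Pam3 alone 9 were lower (8.66% of all), with a median of -0.10. Psap (chr10:60113431-60138380), the precursor of the saposins, fell from 14788, 15314 and 14255 CPM to 4234, 4231 and 4214 CPM, or 3.5-fold, the largest loss in CPM of all tested genes. The proteases Ctsd and Ctsl fell 1.51-fold and 2.56-fold. Neu1, Galns and Npc2 were not called. Both Mmp12 and Fn1 were among the largest losses in level. The elastase gene Mmp12 fell from 3425, 3584 and 3703 CPM to 652, 546 and 580 CPM. The fibronectin gene Fn1 fell from 4138, 3296 and 3918 CPM to 1232, 1103 and 1330 CPM. With TGFβ alone the means were 4712 ± 56.1 CPM for Psap, 167 ± 15.7 CPM for Mmp12 and 1216 ± 74.2 CPM for Fn1.

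Lipid synthesis genes moved together in the other direction. Of 20 tested sterol synthesis genes 18 were higher (90%, against 25% of all tested genes) and none lower (against 27.2%), with a median of 0.67, and Stard4 and Insig1 were not called. Idi1, of the mevalonate pathway, rose 2.68-fold. Of 14 LXR targets and fatty acid synthesis genes 12 were higher (85.7%) and none lower, with a median of 0.70, and Elovl6 and Abcg1 were not called. Fads2 (chr19:10038130-10079203), a desaturase, rose from 52.6, 57.2 and 53.4 CPM to 352, 372 and 365 CPM, or 6.67-fold, near its mean of 397 ± 1.41 CPM with TGFβ alone. The cholesterol exporter Abca1 rose 3.87-fold, from 113, 96.3 and 111 CPM to 460, 350 and 428 CPM, above both single treatments (149 ± 6.81 CPM with TGFβ and 192 ± 13.3 CPM with Pam3). Of 19 genes of fatty acid oxidation and lipid droplets, 6 were higher (31.6%, near the 25% of all tested genes) and 11 lower (57.9%, against 27.2%), with a median of -0.23.

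Energy metabolism changed by smaller amounts. Of 38 nuclear genes of oxidative phosphorylation 26 were lower (68.4%, against 27.2% of all tested genes) and 1, Ndufb3, was higher (2.63%, against 25%). The median was -0.26 and no member changed 2-fold. With TGFβ alone 23 were lower (28.1% of all tested genes were), with a median of -0.25. With Pam3 alone 5 were lower (8.66% of all), with a median of -0.08. Ndufb3 was not called without untreated replicate 3 or Pam3+TGFβ replicate 2, with upper-quartile scaling, with the class of RNA without poly(A) tails as a term, or in the low class alone. The glycolysis list had 9 genes higher (47.4%) and 6 lower (31.6%, near the 27.2% of all) of 19, with a median of 0.14. Its hexokinases moved apart, as Hk2 rose 2.11-fold, from 140, 134 and 143 CPM to 300, 282 and 297 CPM, and Hk3 fell 2.88-fold, from 98, 107 and 95.8 CPM to 36.2, 32.6 and 35.8 CPM. Pkm, which encodes pyruvate kinase, was not called (-0.06, SE 0.0621, adjusted p = 0.488).

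Of 15 tested genes of antigen presentation and costimulation, 5 were higher (33.3%, against 25% of all tested genes) and 8 lower (53.3%, against 27.2%), with a median of -0.69. Cd40 (chr2:164897544-164914868) held 0, 8 and 6 counts in untreated and 154, 171 and 168 counts under both, and Icosl rose 3.28-fold. Cd80 and Cd86, the ligands of CD28, fell by 2.03 and 1.21 on the log2 scale. The class II chaperone H2-DMa fell 2.4-fold and the invariant chain gene Cd74 1.68-fold, while H2-Ab1 was not called at 0.01. The summed level of 5 dendritic cell markers, mostly Zbtb46, was 4.6 to 5.7 CPM in untreated and 1.69 to 2.53 CPM under both, and its part in these falls was not tested.

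Of 19 scavenger, lectin and uptake receptors 8 were higher (42.1%, against 25% of all tested genes) and 9 lower (47.4%, against 27.2%). The inhibitory receptor Siglece rose from 32.5, 41.8 and 40 CPM to 311, 314 and 303 CPM, or 8.12-fold, and the lectin Mgl2 fell from 311, 303 and 201 counts to 0, 3 and 0, at least 90.1-fold lower. The median of the list was -0.11, and 0.32 when only genes with at least 10 counts in every library were tested. Of 34 cell cycle genes 16 were higher (47.1%) and 6 lower (17.6%), against the same 25% and 27.2%. Mcm2, of the replication helicase, rose 1.53-fold, the cell cycle inhibitor Cdkn1a fell 3.28-fold from 216, 238 and 213 CPM to 65.4, 70.4 and 67.7 CPM, and the proliferation marker Mki67 was not called (0.10, SE 0.0596, adjusted p = 0.168).

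**Figure D4:**
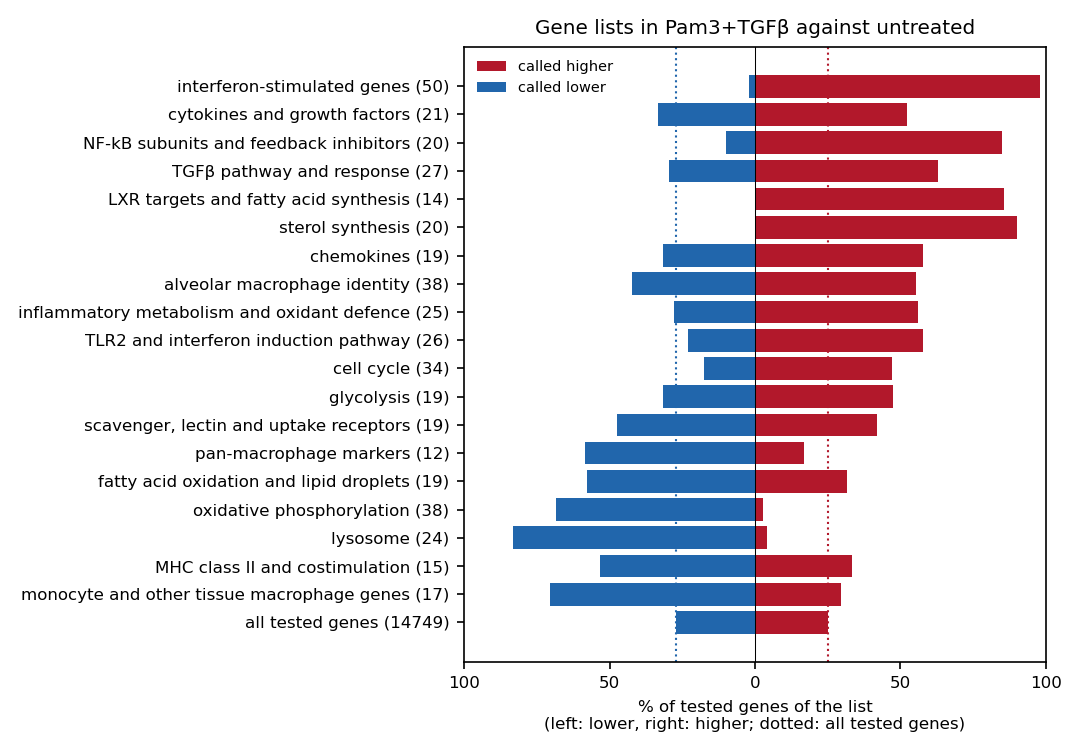
Share of the tested genes of each list called higher (right) or lower (left) in Pam3+TGFβ against untreated, with the number of tested genes in brackets and dotted lines at the shares of all tested genes (25% higher, 27.2% lower). The interferon, sterol synthesis, LXR and NF-kB lists lie far to the right of the dotted line, and the lysosome, monocyte and oxidative phosphorylation lists far to the left.

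Outside the lists, the largest falls were in genes that untreated cells expressed and treated cells nearly lost. Igf2r, the mannose 6-phosphate receptor gene (chr17:12901293-12988614), fell from 40.3, 35.9 and 40.6 CPM to 0.233, 0.0268 and 0.316 CPM, a log2 fold change of -7.60 that became -8.23 without Pam3+TGFβ replicate 3. Nes, which encodes the filament protein nestin, fell from 597, 653 and 549 counts to 3, 4 and 2. Serpinb10 went from 250, 308 and 289 counts to 0 in all 3 libraries, at least 94.4-fold lower. In each of these genes the level with TGFβ alone was also under 1 CPM, so the loss was present without Pam3.

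Opposite single effects were called for 1020 of 14749 genes (6.92%), 625 higher with Pam3 and lower with TGFβ and 395 the reverse. Under both stimuli 498 of the 1020 ended above untreated, 246 below it and 276 were not called. Among all tested genes 25% were called higher and 27.2% lower. Of the 625, 354 ended above untreated and 147 below it, and of the 395, 144 above and 99 below. Cancelling was defined as opposite called single effects with a 95% interval of the change under both that lay within 1.5-fold of untreated. It held for 552 genes (3.74%), 281 higher with Pam3 and 271 higher with TGFβ. For comparison, that interval lay within 1.5-fold for 7065 of all tested genes (47.9%). The smaller of both single effects exceeded 1.5-fold in 40 of the 552 genes and 2-fold in 6. With the class of RNA without poly(A) tails as a term 491 genes were cancelling, 472 of them shared with the 552, and in the 7 libraries of the low class 146, 141 of them shared. Both single contrasts use the same untreated libraries, so these counts describe the rule and are no test. Of the 552, 285 still differed from untreated by a called but small amount, while 52.1% of all tested genes were called.

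Cd38 (chr5:44025875-44069717), an enzyme that degrades NAD, lay above untreated with Pam3 alone and below it with TGFβ alone. It had 87.8, 90.8 and 93.9 CPM in untreated and 88.2, 81.3 and 82.6 CPM under both. Its mean was 203 ± 8.25 CPM with Pam3 alone and 24.6 ± 0.601 CPM with TGFβ alone. The groups overlapped, the net change was -0.11 (SE 0.0519, adjusted p = 0.073) and its 95% interval ran from -0.22 to -0.01. Without Pam3+TGFβ replicate 1 this became -0.15 with an adjusted p of 0.0398, still inside the margin.

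Slco2b1 (chr7:99306783-99360547), an organic anion transporter, returned from the other side. It had 48.3, 47.7 and 48.6 CPM in untreated and 42.4, 47.2 and 49.4 CPM under both, a change of -0.06 (SE 0.0599, adjusted p = 0.457). Pam3 alone gave 21.6 ± 0.932 CPM and TGFβ alone 133 ± 0.642 CPM. Ypel3, a gene of a small zinc-finger family, had 29.7, 27.7 and 28 CPM in untreated and 20, 27 and 25.6 CPM under both, between 14.4 ± 1.59 CPM with Pam3 and 83.2 ± 2.62 CPM with TGFβ. Its called change of -0.23 was not called with the class of RNA without poly(A) tails as a term (-0.20, adjusted p = 0.0657), without Pam3+TGFβ replicate 1 (-0.11, adjusted p = 0.293), without untreated replicate 1 (-0.20) or replicate 3 (-0.24), or without Pam3 replicate 3 (-0.22).

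Hp, which encodes haptoglobin, and Cbln1, a secreted protein gene, were low with TGFβ alone and near untreated with both. Hp had 23.6, 35.6 and 30.6 CPM in untreated and 27.4, 35.1 and 35.8 CPM under both, against 62.3 ± 6.57 CPM with Pam3 and 6.44 ± 0.119 CPM with TGFβ. Cbln1 had 47.8, 72.1 and 60.9 CPM in untreated and 66.2, 66.2 and 57.9 CPM under both, against 125 ± 8.38 and 6.69 ± 1.28 CPM. Their net changes were 0.13 (SE 0.136, adjusted p = 0.458) and 0.07 (SE 0.151, adjusted p = 0.726). Trim30c, of a family with close copies, had a net change of 0.04, after 1.14 with Pam3 and -4.11 with TGFβ.

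Of the cytokine receptor and chemokine genes in this set, Il21r had 33.7, 33.7 and 33.8 CPM in untreated and 29.8, 28.1 and 30.3 CPM under both, with 63.2 ± 1.35 CPM under Pam3 and 12.7 ± 0.746 CPM under TGFβ. Its net change of -0.20 (adjusted p = 0.0129) was not called without Pam3+TGFβ replicate 2 (-0.16, adjusted p = 0.0838). Ccl9, a chemokine for myeloid cells, rose from 1779, 2068 and 1911 CPM to 2768, 2528 and 2511 CPM, a called change of 0.44 inside the 1.5-fold margin, against 3493 ± 92.5 CPM with Pam3 and 957 ± 60.4 CPM with TGFβ. Mcu, the mitochondrial calcium channel, had 4.76, 4.35 and 5.39 CPM in untreated and 4.86, 4.42 and 4.92 CPM under both, with an interaction of 0.01 (SE 0.206, adjusted p = 0.984). Over 22 other settings that kept the margin and the threshold, Ccl9 stayed in the cancelling set in 17, Trim30c in 20, Hp and Cbln1 in 21, and Cd38, Slco2b1, Ypel3, Il21r and Mcu in all 22. With a narrower margin, Cd38 and Slco2b1 stayed in the set and Ccl9, Trim30c, Hp, Cbln1, Ypel3, Il21r and Mcu did not.

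Of the cancelling genes, Ccl3, Ptafr and Anpep had far larger effects of TGFβ than of Pam3. Ccl3 (chr11:83538670-83540191), a chemokine for monocytes and T cells, had 85.3, 108 and 84.6 CPM in untreated, 2.76 ± 0.291 CPM with TGFβ alone, 155 ± 16.2 CPM with Pam3 alone and 84.2, 82.6 and 72.7 CPM with both. The step from TGFβ alone to both was 4.85 on the log2 scale and the net change -0.22 (SE 0.0986, adjusted p = 0.0794). This net change was called without untreated replicate 1 (-0.27, adjusted p = 0.0386) or replicate 3 (-0.27, adjusted p = 0.0394). It was also called with the class of RNA without poly(A) tails as a term (-0.26, adjusted p = 0.0207) and with the replicate number as a block (-0.22). Ptafr, the receptor for platelet-activating factor, had 94, 101 and 93.2 CPM in untreated, 20.1 ± 2.31 CPM with TGFβ alone, 136 ± 4.16 CPM with Pam3 alone and 130, 105 and 113 CPM with both. Anpep, the aminopeptidase CD13, had 306, 342 and 334 CPM in untreated, 68.9 ± 3.21 CPM with TGFβ alone, 409 ± 20.6 CPM with Pam3 alone and 266, 251 and 273 CPM with both. In both genes the Pam3+TGFβ libraries did not overlap the untreated ones, which held for 56.8% of all tested genes (27.5% higher, 29.3% lower), and the small net changes were called, Ptafr at 0.27 (adjusted p = 0.00404) and Anpep at -0.32 (adjusted p = 5.55e-06).

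**Figure D5:**
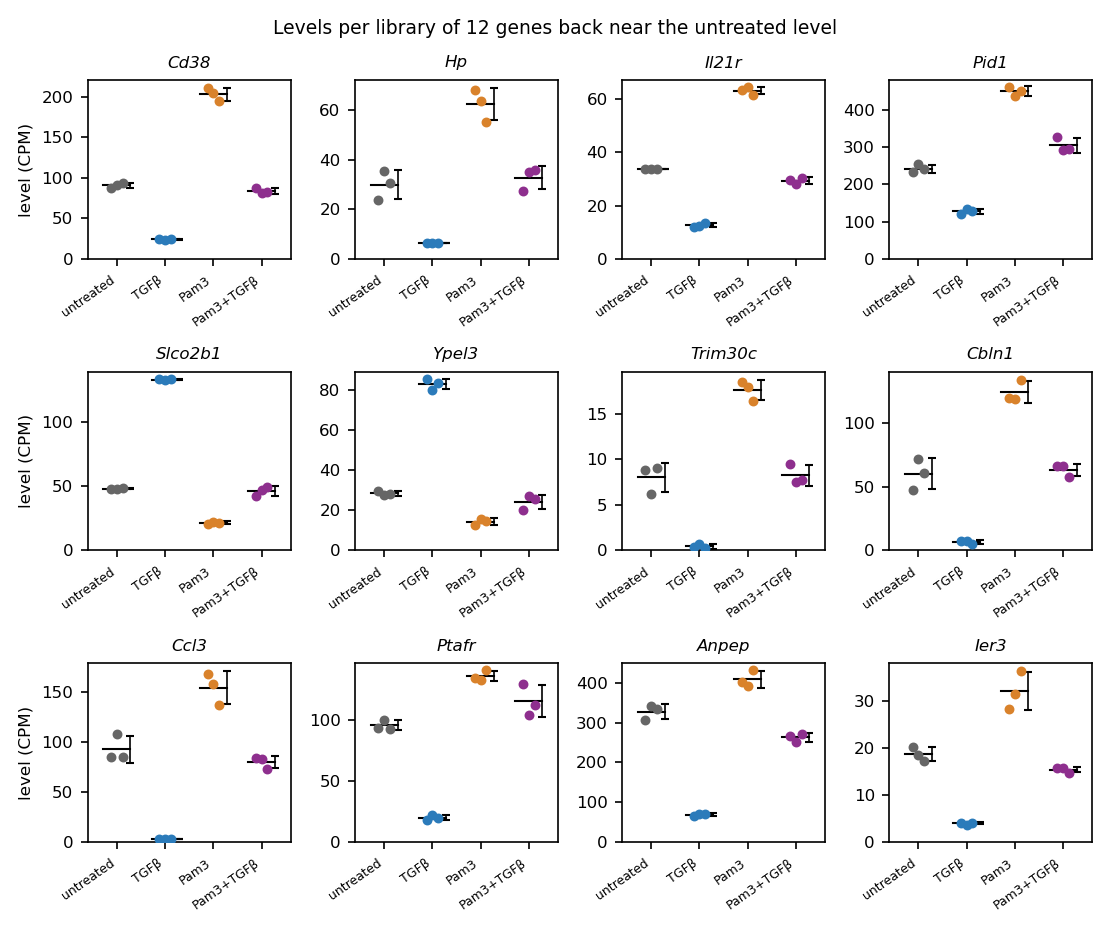
Level in CPM of 12 genes in each library of the 4 groups, with a line at the mean and a bar of 1 SD to its right (n = 3). In Cd38, Hp, Il21r and Pid1 the single treatments lie on opposite sides of untreated and the group with both near it; Slco2b1 and Ypel3 show the reverse order of the single treatments, and Ccl3, Ptafr, Anpep and Ier3 are lowest with TGFβ alone.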

How the data were processed

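The labels and the series' text describe a stranded mRNA library kit, NovaSeq sequencing, alignment to GRCm39 with Bowtie2 2.4.1 and counting with featureCounts of Subread 2.0.0. The annotation and strand setting used in counting are not given in the sources used here. Bowtie2 does not split reads over introns, so genes with intronless copies, such as Actb and Fth1, are less certain. The values deposited by the authors were counts, whole reads per gene symbol, and a normalized signal, which the authors made by dividing the counts by a constant per library. Of the 40847 rows 17090 held no counts and 9008 more fell below the filter.

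The tests used the counts. Genes passed filterByExpr of edgeR 4.0.16 (minimum count 10, R 4.3.3), libraries were scaled with TMM, and the robust quasi-likelihood test used a model of 4 group means over the whole set of 12 libraries. A call is an adjusted p below 0.05, by the method of Benjamini and Hochberg across every gene tested, and all adjusted p of genes come from this test. The SE is the size of the log2 fold change divided by the square root of F. Where every library of a group had at most 3 counts, a fold is a lower bound against 3 counts per library and covers counting error only.

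The lists, the members named and the rules were chosen with earlier results of these data known. Named genes were the 12 strongest calls in each direction, provided that the groups did not overlap and that the higher one had 100 counts or more in each library, and the 6 strongest by difference in CPM. From each list the 4 most changed and the 2 most abundant members were added. So were up to 12 cancelling genes with a large smaller single effect, though not all 6 of those above 2-fold. Up to 8 genes with the largest TGFβ effect that returned to within 1.5-fold, and 18 fixed genes, were added too. Part of them are described. List members outside this rule were named after their values were seen: those not called or against their list's direction, the marker genes of other cells, and Irf7, Isg15, Stat2, Irf9, Sp100, Psmb8, Ccr2, Ly6c2, Cx3cr1, Apoe, C1qa, Car4, Ear1, Ear2, Csf1, Il15, Il18, Osm, Cxcl2, Cxcl16, Ptgs1, Tlr6, Myd88, Nfkbia, Tnfaip3, Skil, Tgfbr2, Nrros, Cd74 and Cd86. No replicate pair was alike within sampling noise, as their chi-square values divided by the degrees of freedom were 9.99 to 220. Same-numbered libraries did not all deviate together (correlations -0.174 to 0.3), so the numbers were not used as pairs. Those of number 3 were positively correlated in every pair of groups (0.0332 to 0.3). Alternatives were other scalings, DESeq2 1.42.0, limma 3.58.1 on the deposited signal, other filters and thresholds, a replicate block and leaving out each library. After the data were seen, the share of RNA without poly(A) tails was added, as a term of 2 classes or by its low class alone. Positions come from GENCODE M39, matched by symbol for 91.9% of tested genes. The promoter table is from RefSeq. The procedure was tested on simulated data in which few genes were changed, as many up as down. It called 61.2% of 1.5-fold and 76% of 2-fold changes, and 6 of its 169 calls (3.55%) were of unchanged genes. In the real data 52.1% of genes were called, so this does not test the scaling or the uneven classes of libraries. A few genes that the naming rule picked are not reported here.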

Additional observations from a re-analysis of the deposited data

Results flagged for a closer look

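In 2352 genes the change under both stimuli differed from the sum of the single log2 changes, by the interaction term of edgeR's quasi-likelihood test (adjusted p under 0.05). With the class of RNA without poly(A) tails as a term the interaction was called for 1667 genes, and in the 7 libraries of the low class for 802. Of the 552 cancelling genes it was positive in 151, negative in 70 and not called in 331. Over all tested genes it was positive in 10.3% and negative in 5.67%. Genes higher with Pam3 and lower with TGFβ made up 147 of the 151, and the reverse kind all 70. The rule for cancelling genes holds the net change near 0. In this set the sign of the interaction therefore mainly restates which single effect was the larger, and the split is no separate result. Among the cancelling genes picked by the naming rule, the interaction was 0.61 for Cd38, 3.01 for Trim30c, 1.29 for Hp, 2.20 for Cbln1, 0.31 for Il21r, 0.36 for Pid1, 0.72 for Arl5c, 0.58 for Tma16 and 0.58 for Ccl9. It was negative for the transporter gene Slco2b1 at -0.37 and for Ypel3 at -0.79. Among the genes picked for a large effect of TGFβ alone, it was 4.12 for Ccl3, 1.58 for Gm6377, 2.02 for Ptafr, 1.61 for Anpep and 1.18 for Ier3. These genes were picked for a large TGFβ effect and a net change within 1.5-fold. A large interaction follows from that rule unless Pam3 alone had an opposite effect of like size. Pid1 encodes an adaptor of lipoprotein receptors, Arl5c a small GTPase and Ier3 an early response protein, and their net log2 fold changes were 0.33, -0.03 and -0.28. The last was not called without untreated replicate 1 (-0.21) or Pam3+TGFβ replicate 3 (-0.25), and that of Tma16 (0.26) was not called without untreated replicate 1 (0.19) or Pam3+TGFβ replicate 2 (0.23). Gm6377, at -0.25, was called without untreated replicate 2 (-0.33) or Pam3+TGFβ replicate 1 (-0.35), and with the replicate number as a block (-0.25).

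Ifnb1, which lay below the count filter, had 39 counts over the Pam3+TGFβ libraries and 0 in each untreated library.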

How the results depend on the processing

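Leaving out each library in turn gave 6999 to 7693 calls for Pam3+TGFβ against untreated and 383 to 553 cancelling genes. A filter of at least 10 counts in every library gave 737 genes at least 2-fold lower and moved the median of the scavenger list to 0.32. Testing against a minimum log2 fold change of 1 gave 1381 genes, 585 higher and 796 lower, and 91 for Pam3 alone, 1188 for TGFβ alone, 568 for the step from TGFβ to both, 981 for the step from Pam3 to both and 203 for the interaction. An adjusted p under 0.01 gave 1682 genes for Pam3 alone, 1487 for the interaction and 308 cancelling genes. Cancelling genes numbered 306 with a narrower margin for the interval and 40 when both single changes had to reach 1.5-fold. The 7 libraries with little RNA without poly(A) tails, a setting chosen after seeing the data, gave 1173 genes for Pam3 alone, 3370 for the step from TGFβ to both, 802 for the interaction and 146 cancelling genes, with fewer samples in each group but Pam3+TGFβ. Ndufb3 was not called with these libraries or with the class as a term. The share of calls that were higher ran from 42.4% to 52.5%, against 47.9%. The replicate number as a block gave 7676 calls and 562 cancelling genes, 537 of them shared. With it, Ccl3 (-0.22) and Gm6377 (-0.25) were called. Of values for named genes, 1818 without 1 library and 1734 under other settings kept direction and call. The call was lost in 13 and 59 and gained in 5 and 11. Of counts and medians of the gene lists, 636 without 1 library and 653 under other settings stayed close, 48 and 87 moved and 1, the scavenger median, reversed. The median of the identity list moved in 23 of 25 settings (0.33 to 0.46), that of glycolysis in 11 (0.07 to 0.24) and that of the monocyte list in 10 (-3.15 without Pam3 replicate 1 to -0.26 with at least 10 counts in every library), and that of the cytokines ran from 0.67 without Pam3+TGFβ replicate 2 to 1.74 without Pam3 replicate 1. Falls of genes with almost no counts under both stimuli, such as C1qb, are limited by depth to their bounds.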
